A study of Mus musculus with 3 samples.

Results

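Genes that mark astrocytes were examined in cultured mouse neural stem cells in which Phf2, the gene of a histone demethylase-family protein that acts on lysine 9 of histone H3, was lowered. They were 10 genes chosen by name: Gfap, Aqp4, S100b, Clu, Sparcl1, Aldoc, Slc1a2, Gja1, Aldh1l1 and Apoe. All 10 were among the 16977 genes of the deposited table, and none was absent. The cells were neural stem cells of C57BL/6J mice, labelled E12.5, grown without serum on poly-D-lysine and laminin with EGF at 20 ng/ml and FGF at 10 ng/ml. The shPHF2 group (2 libraries, which the series calls biological replicates) was infected with a lentivirus carrying a short hairpin RNA against Phf2, and the shControl group (1 library) with a lentivirus carrying a control hairpin. The sources used here do not say whether the shPHF2 replicates used the same hairpin.

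Astrocytes arise from the same radial progenitors that first make neurons. In the mouse brain the switch to gliogenesis uses cytokine signals through gp130, JAK kinases and STAT3, together with BMP, Notch and NFI factors, and the Gfap promoter is held shut by DNA methylation and histone H3 lysine 9 methylation before it. EGF and FGF keep cultured progenitors dividing. Several markers of astrocytes, Slc1a3 and Fabp7 among them, are already made by radial glia, so a single marker does not define the cell type.

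Levels are normalised read counts: reads per gene after division by the library size factor that the authors applied. The libraries held 26302177 to 37171026 reads in genes. Phf2 had 985 and 714 normalised reads in shPHF2 replicates 1 and 2, against 2593 in shControl. Markers of the stem cell label had unlike levels. Over the 3 libraries the intermediate filament gene Nes had 98053 to 118161 and the transcription factor gene Sox2 had 5893 to 10114 normalised reads. Some other progenitor genes were far lower, with Prom1 at 111 to 499, Msi1 at 291 to 356 and Hes5 at 14.5 to 39.9. Of the 14 microglial markers 5 had values, summing to 330 to 387 normalised reads in shPHF2 against 306 in shControl. Most of each sum came from P2ry12 and Cd68, named after their values were seen. P2ry12 had 204 and 213 in shPHF2 replicates 1 and 2 against 99.7 in shControl, and Cd68 had 148 and 102 against 195. Aif1 and Tmem119 were at 0 in shControl and at most 4.17 in shPHF2. The 12 endothelial and pericyte markers summed to 391.8 and 258 in shPHF2 replicates 1 and 2 against 334 in shControl. Cldn5 was at 0 in both shPHF2 libraries, while Kdr had 156 and 77.2 there against 200 in shControl, and Tek 165 and 95.2 against 78.7. The sums of both lists stayed below the levels of Nes and Sox2. These are bulk samples, in which fewer cells of a type and less RNA per cell cannot be told apart.

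Among the astrocyte markers, the secreted protein genes Sparcl1 and Clu and the calcium-binding protein gene S100b rose in shPHF2 cells, to 3.58, 4.57 and 2.94 times the shControl value on the mean of the replicates. The classic markers of mature astrocytes, Gfap and Aqp4, were close to undetected in all 3 libraries. Aldoc and Gja1 were below shControl in both replicates and Slc1a2, Aldh1l1 and Apoe above it, and none of these 5 passed the test. Of the 10 markers, 3 were called higher and 0 lower (limma, Benjamini-Hochberg adjusted p under 0.05 over the 14148 genes whose mean reached 10). Over all genes tested 14.3% were called, 7.22% higher and 7.11% lower. For the direction with 0 calls, 0 markers were lower at an unadjusted p under 0.05 and 0 were called lower by edgeR or DESeq2.

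**Figure D1:**
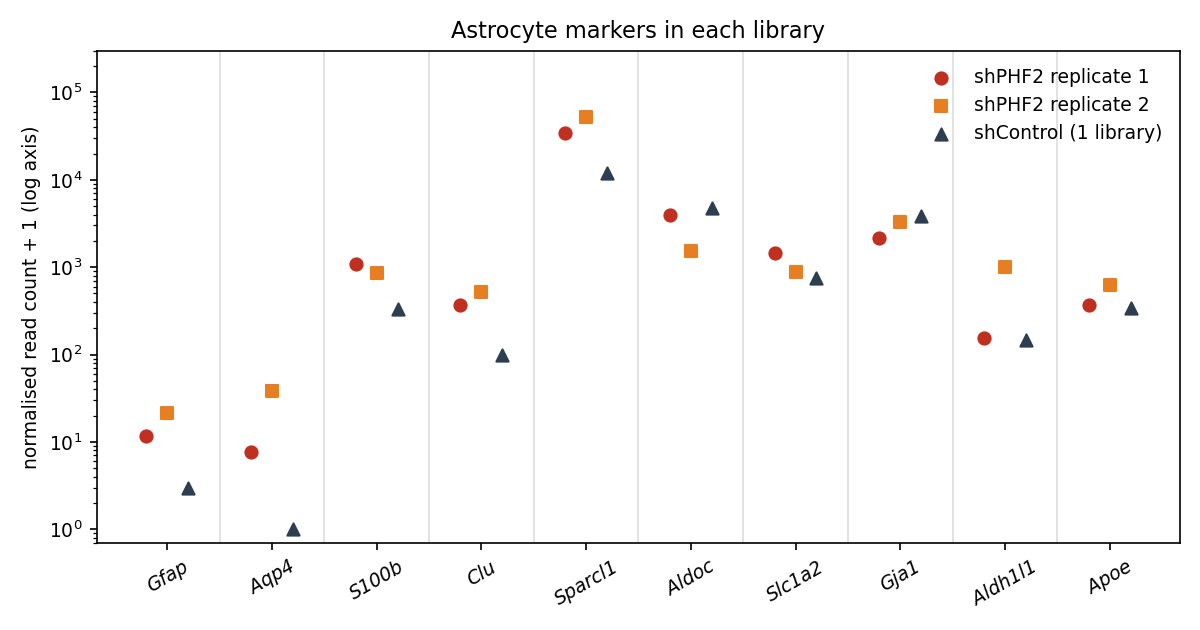
Normalised read counts plus 1 (log axis) of the 10 astrocyte markers in shPHF2 replicate 1 (circles), shPHF2 replicate 2 (squares) and the single shControl library (triangles). Both shPHF2 points lie above shControl for S100b, Clu and Sparcl1, no Gfap or Aqp4 value exceeds 37.4 normalised reads, and the Aldh1l1 points of the replicates stand 6.65-fold apart.

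To show the DNA in front of a marker that rose and of the defining marker that stayed near 0, the 250 bases before the RefSeq start of S100b and of Gfap are given, from RefSeq (GRCm38.p6); 7 of the 10 markers had an entry there. The S100b window is chr10:76253586-76253835 on the plus strand, and the Gfap window is chr11:102897201-102897450 on the minus strand. They end just before the RefSeq starts, 76253836 for S100b and 102897200 for Gfap; the GENCODE span of Gfap given with its values reaches further upstream, to 102900912, so the Gfap window lies inside that span. Capitals mark matches on either strand to letters bound by factors of gliogenesis: TTCNNNGAA for STAT factors, TGGGAA for RBPJ of the Notch pathway, TTGGC for the core site of NFI factors, TGANTCA for AP-1 and CAGCTG for an E-box.
S100b: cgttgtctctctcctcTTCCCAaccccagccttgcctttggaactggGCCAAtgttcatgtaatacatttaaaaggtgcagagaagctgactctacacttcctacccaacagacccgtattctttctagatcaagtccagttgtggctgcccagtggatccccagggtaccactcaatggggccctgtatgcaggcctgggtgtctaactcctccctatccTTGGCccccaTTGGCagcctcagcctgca
Gfap: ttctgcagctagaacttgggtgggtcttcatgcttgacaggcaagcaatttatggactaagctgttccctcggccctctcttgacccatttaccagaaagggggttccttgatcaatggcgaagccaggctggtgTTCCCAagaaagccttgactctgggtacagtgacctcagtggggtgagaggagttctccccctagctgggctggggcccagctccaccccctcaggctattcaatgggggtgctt
The S100b window held 3 matches to the NFI core site, starting at -203, -29 and -19 from the RefSeq start, and 1 to the RBPJ letters, starting at -234. The Gfap window held 1 match, to the RBPJ letters, starting at -115. None of these matches overlapped another. Of 32851 promoter windows of the same length, 41.5% held the NFI core site and 21.6% the RBPJ letters, so both are common. The STAT letters, found in 7.02% of all windows, were in neither window, which says only that they are not in these 250 bases.

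Gfap encodes the intermediate filament protein that names the astrocyte cytoskeleton and lies on chromosome 11 (102887336 to 102900912, minus strand, GENCODE M21, GRCm38). It had 10.8 and 20.5 normalised reads in shPHF2 replicates 1 and 2, against 1.99 in shControl. These are 13, 17 and 2 reads, so both shPHF2 libraries were above the control but on few reads. The reads of the shPHF2 libraries together, per size factor, were 7.42 times those of shControl, with a 95% interval of 1.88 to 64.1 (exact, from the binomial distribution), which covers counting error only. The test did not call Gfap (log2 fold change 2.41, SE 1.11; limma, adjusted p = 0.18). With a shControl value under the minimum mean of 10, Gfap entered the test only through its shPHF2 libraries.

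Aqp4, the gene of the water channel of astrocyte endfeet, was the other marker near the limit of detection. It had 6.67 and 37.4 normalised reads in shPHF2 replicates 1 and 2, against 0 in shControl. Taking 3 reads, or 2.99 normalised reads, as the limit for a count of 0, the shPHF2 mean was at least 7.36-fold higher, a bound that leaves out the counting error of shPHF2. The replicates themselves were 5.60-fold apart, and their 95% Poisson intervals, 2.88 to 13.1 and 25.4 to 53.1 normalised reads, did not overlap. The unadjusted p was 0.020 and the adjusted p 0.092 (limma), so Aqp4 was not called, and it too entered the test only through shPHF2. In the authors' deposited table, both Gfap and Aqp4 have an empty adjusted p-value.

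Sparcl1 encodes hevin, a secreted matrix protein that astrocytes release at forming synapses, and was the most abundant of the markers in every library. The gene lies on chromosome 5 (104079111 to 104113733, minus strand). It had 33997 and 52281 normalised reads in shPHF2 replicates 1 and 2, against 12044 in shControl. Each shPHF2 library was thus far above the control, and the mean was 43139 ± 12928 (SD, n = 2). The log2 fold change was 1.81, with a 95% interval of 1.13 to 2.48 (SE 0.29; limma, adjusted p = 0.011).

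Clu encodes clusterin, a secreted chaperone and lipid carrier, on chromosome 14 (65968483 to 65981547, plus strand). It had 370 and 514 normalised reads in shPHF2 replicates 1 and 2, against 96.7 in shControl. The groups did not overlap, and the rise, 3.83-fold in replicate 1 and 5.31-fold in replicate 2, was the largest of the 3 called markers. The log2 fold change was 2.16, with a 95% interval of 1.39 to 2.93 (SE 0.33; limma, adjusted p = 0.0093).

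Apoe, the third secreted protein of the set, encodes the main apolipoprotein of the brain and lies on chromosome 7 (19696109 to 19699188, minus strand). It had 368 and 626 normalised reads in shPHF2 replicates 1 and 2, against 344 in shControl. The 95% Poisson intervals of replicate 1 and of shControl, 334 to 404 and 309 to 382, overlapped, while replicate 2 stood above both. The fitted log2 fold change of 0.48 had a 95% interval of -0.33 to 1.28 and was not called (limma, adjusted p = 0.39).

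S100b, a calcium-binding protein gene on chromosome 10 (76253853 to 76261159, plus strand), is shared by astrocytes and young oligodendrocyte-lineage cells. It had 1094 and 850 normalised reads in shPHF2 replicates 1 and 2, against 331 in shControl. Both replicates were above shControl, and S100b was the called marker with the closest replicates, 1.29-fold apart. The log2 fold change was 1.54, with a 95% interval of 0.96 to 2.12 (SE 0.25; limma, adjusted p = 0.011). Of 11 oligodendrocyte-lineage genes tested, limma and edgeR called 0, where limma called 14.3% of all genes tested. DESeq2 called 1, Nkx2-2, named after its values were seen, with 72.5 and 412 in shPHF2 against 33.9 in shControl. At an unadjusted p under 0.05, limma had 2 higher and 1 lower. Both shPHF2 libraries lay above shControl for 3 of the 11 genes and below it for 6. Pdgfra, also named after its values were seen, had 303 and 159 in shPHF2 against 539 in shControl. Olig2, a transcription factor of that lineage, had 24241 and 29091 normalised reads in shPHF2 replicates 1 and 2, against 29320 in shControl. The part of that lineage in the S100b result was not tested.

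Neither metabolic marker was called. Aldoc encodes the brain form of aldolase, a glycolytic enzyme, on chromosome 11 (78322968 to 78327781, plus strand). It had 3998 and 1522 normalised reads in shPHF2 replicates 1 and 2, against 4772 in shControl. Replicate 1 was at 83.8% and replicate 2 at 31.9% of the control, so the difference lay mostly in replicate 2, and it was not called (log2 fold change -0.95, 95% interval -2.02 to 0.11; limma, adjusted p = 0.20).

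Aldh1l1, a folate-metabolizing dehydrogenase gene widely used to mark the whole astrocyte lineage, lies on chromosome 6 (90486427 to 90600203, plus strand). It had 152 and 1009 normalised reads in shPHF2 replicates 1 and 2, against 146 in shControl. Replicate 1 was level with shControl within counting error, and the higher shPHF2 mean came from replicate 2. The log2 fold change was 0.06 with replicate 1 alone and 2.79 with replicate 2 alone. The fitted value of 1.42 had a 95% interval of -0.63 to 3.47 and was not called (limma, adjusted p = 0.32). An antisense gene and a long non-coding gene share 499 and 105 bases of its exons, and reads from them cannot be told apart where counting did not use the strand or where the genes run the same way.

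Slc1a2 encodes the glutamate transporter GLT-1, a protein of maturing astrocytes, on chromosome 2 (102658659 to 102790784, plus strand). It had 1445 and 885 normalised reads in shPHF2 replicates 1 and 2, against 744 in shControl. Both were above shControl, by 1.94-fold and 1.19-fold, and the fitted log2 fold change of 0.60 was not called (95% interval -0.08 to 1.29; limma, adjusted p = 0.21). An antisense gene shares 189 bases of its exons.

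Gja1, the gene of connexin 43, the main gap junction protein of astrocytes and of radial glia, lies on chromosome 10 (56377330 to 56402513, plus strand). It had 2158 and 3284 normalised reads in shPHF2 replicates 1 and 2, against 3853 in shControl. It was below shControl in both, at 56.0% and 85.2%, and not called (log2 fold change -0.53, 95% interval -1.12 to 0.05; limma, adjusted p = 0.20).

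**Figure D2:**
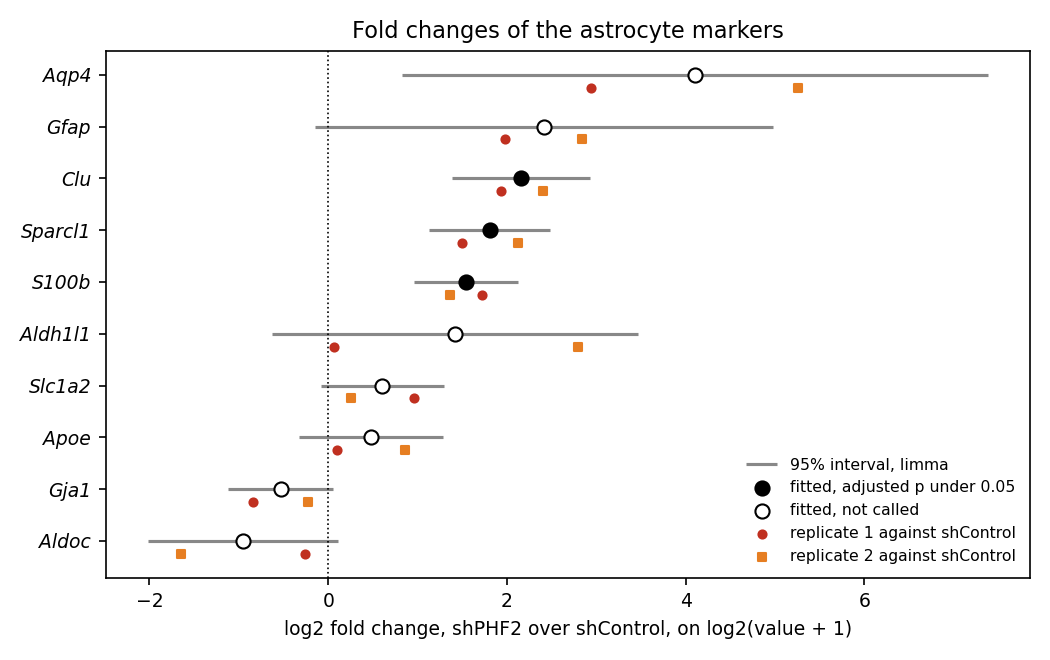
Log2 fold change of each astrocyte marker, shPHF2 over shControl, on the log2(value + 1) scale. Large circles are the limma fit (filled where the adjusted p is under 0.05), lines are 95% intervals, and small symbols are the single shPHF2 replicates against the same shControl library; S100b, Clu and Sparcl1 are filled, at 1.54, 2.16 and 1.81.

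Both shPHF2 libraries lay above shControl for 8 of the 10 markers and below it for 2, where 41.4% of all genes tested lay above and 41.8% below. The markers were chosen with earlier results of these data known, and both replicates share the 1 shControl library, so these shares only describe. Among the 8 markers with a mean of at least 50 it was 6 above and 2 below, beside 41.2% and 43.2% of all genes with such a mean. The median log2 fold change of the markers was 1.48, with 1.23 in replicate 1 and 1.74 in replicate 2, beside -0.01 over all genes tested. Putting Aqp4 at its lower bound of 7.36-fold left that median at 1.48, but the bound still lies above the middle markers, so the median could not move. Gfap and Aqp4 could pass the minimum only by being higher in shPHF2, and without them the median was 1.01. The authors' deposited table called the same 3 markers, with log2 fold changes of 1.56 for S100b, 2.19 for Clu and 1.84 for Sparcl1 and adjusted p-values of 0.000114, 4.27e-05 and 3.01e-09. Of all genes with an adjusted p-value, the authors' deposited table called 16.0%, with 8.04% higher and 7.96% lower.

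The markers differed in how closely the shPHF2 replicates agreed. Aqp4, Aldoc and Aldh1l1 were at least 2-fold apart between the replicates on the log2(value + 1) scale, 3 of 10 markers beside 6.98% of all genes tested. The direction of that difference was not shared: Aldh1l1 and Aqp4 were higher in replicate 2, by 6.65-fold and 5.60-fold, and Aldoc was higher in replicate 1, by 2.63-fold. Gfap, Sparcl1, Gja1, Clu and Apoe were higher in replicate 2, by 1.39-fold to 1.89-fold, and S100b and Slc1a2 in replicate 1, by 1.29-fold and 1.63-fold.

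**Figure D3:**
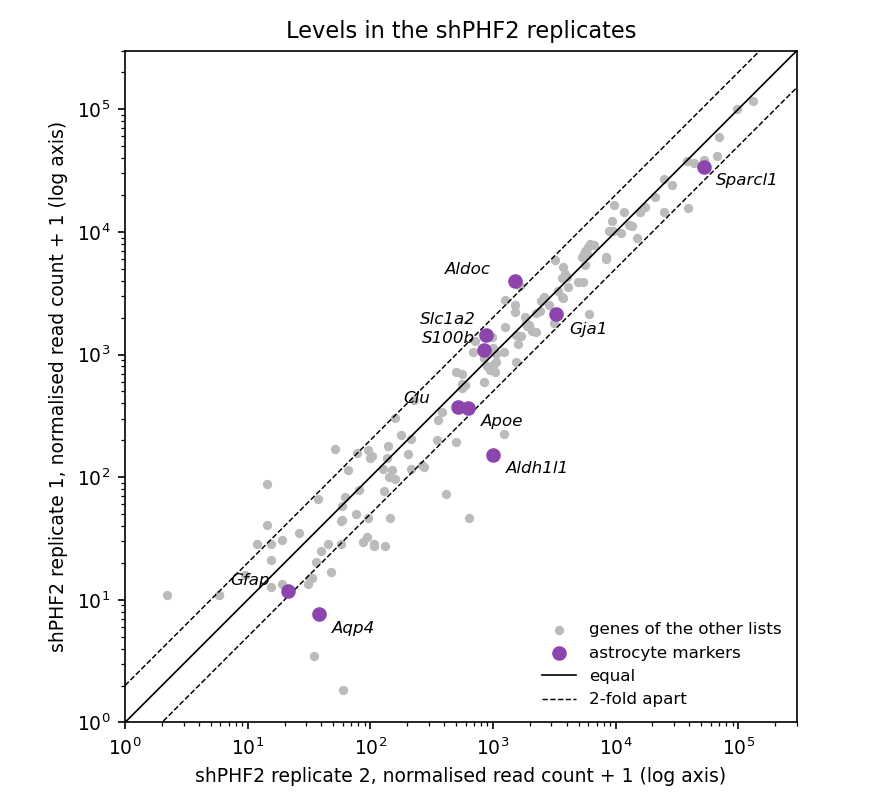
Normalised read count plus 1 in shPHF2 replicate 1 (vertical, log axis) against replicate 2 (horizontal, log axis) for the 10 astrocyte markers and for the tested genes of the other lists. Aqp4, Aldoc and Aldh1l1 lie outside the dashed lines that mark a 2-fold difference; the other 7 markers lie within them.

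Per kilobase of exon, Sparcl1 was the most abundant marker in every library, with 11575 and 17801 normalised reads per kilobase in shPHF2 replicates 1 and 2 and 4101 in shControl. Aldoc stood at 1225 and 466 per kilobase in shPHF2 and 1462 in shControl, and S100b at 737 and 573 in shPHF2 and 223 in shControl. In shPHF2 the ranges of Aldoc and S100b overlap, so their order is not set. Gja1 (210 and 320 per kilobase) and Apoe (172 and 293) came next in shPHF2 with overlapping ranges. Aldh1l1 (33.6 and 223), whose range reached into those of Gja1 and Apoe, Slc1a2 (110 and 67.4) and Clu (108 and 149) overlapped each other, and Gfap and Aqp4 came last at 1.07 to 6.00 per kilobase in shPHF2 and at most 0.473 in shControl. By rank among the 10 in shControl, S100b was in place 4 and Gja1 in place 3, and in shPHF2 S100b was in place 3 and 2 and Gja1 in place 4 in both replicates.

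Other genes enriched in astrocytes moved in both directions. Of 40 further astrocyte genes, 37 were tested, and 8 rose and 2 fell (limma), 27.0% beside 14.3% of all genes tested. The angiotensinogen gene Agt, made in the brain by astrocytes, rose to 574 and 563 normalised reads in shPHF2 replicates 1 and 2, against 66.8 in shControl (log2 fold change 3.07, SE 0.30; limma, adjusted p = 0.0036). Atp1b2, a sodium pump subunit and adhesion protein gene of glia, rose to 1042 and 1229, against 355 (log2 fold change 1.67; limma, adjusted p = 0.0068). The GABA transporter gene Slc6a11 fell to 594 and 844, against 3660 (log2 fold change -2.37; limma, adjusted p = 0.0045). The metallothionein genes Mt1 and Mt2, the cystatin C gene Cst3, Cbs and Slco1c1 also rose, by 0.90 to 1.64 on the log2 scale, and Chrdl1 fell by 0.91; these were named after their values were seen. So was Gpc5, which rose to 28.3 and 85.6 normalised reads in shPHF2, against 2.99 (3 reads) in shControl, with a read ratio of 17.3 (95% counting interval 5.76 to 85.3). Gpc5 passed the minimum mean only through shPHF2, and 7 genes rose without it. Among these, Cbs, Chrdl1 and Gpc5 were not called after a correction for GC content and exon length (limma, adjusted p = 0.084, 0.063 and 0.055), and Slco1c1 was not by DESeq2 (adjusted p = 0.052). The abundant early glial genes were not called: Slc1a3, the glutamate transporter GLAST, had 59509 and 70312 in shPHF2 against 59218 in shControl, and Glul, glutamine synthetase, had 14542 and 15902 in shPHF2 against 15777 in shControl. The median log2 fold change over the 37 genes was 0.19, with 0.01 in replicate 1 and 0.47 in replicate 2. Hepacam, an astrocyte adhesion gene named after its values were seen, had 224 and 1224 normalised reads in shPHF2 and 260 in shControl, so it stood above shControl in replicate 2 alone.

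Of 20 genes linked to reactive astrocytes, 14 were tested, and 3 rose and 0 fell by limma, 21.4% beside 14.3% of all genes tested. The median log2 fold change was 0.84. At an unadjusted p under 0.05 limma had 1 lower, and edgeR and DESeq2 called 0 lower. S100a10, an annexin partner, rose to 6585 and 5827 normalised reads in shPHF2 replicates 1 and 2, against 2852 in shControl (log2 fold change 1.12; limma, adjusted p = 0.010). Named after their values were seen, the others were a serine protease inhibitor gene, Serpina3n, with 31.7 and 92.8 in shPHF2 against 1.99 in shControl, and the oncostatin M receptor gene Osmr, with 115 and 127 in shPHF2 against 29.9 in shControl. Serpina3n rests on 2 reads in shControl, with a read ratio of 28.4 (95% counting interval 7.69 to 237.6). It passed the minimum mean only through shPHF2, so that 2 genes rose without it. The share of 21.4% includes Serpina3n, so it is not read as an excess over the 14.3% of all genes tested. Osmr was not called by DESeq2 (adjusted p = 0.050). Vim, a filament gene of both radial glia and reactive astrocytes, had 116785 and 132042 in shPHF2 against 77235 in shControl and was called by DESeq2 but not by limma (adjusted p = 0.21) or edgeR.

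Genes of the signals that start gliogenesis were taken as ligands and receptors first. Of 27 such genes, 23 were tested, and 6 rose and 3 fell by limma, while edgeR called 5 higher and 4 lower and DESeq2 3 higher and 3 lower. The lower genes were not all the same. Egfr, named after its values were seen, had 14560 and 15704 in shPHF2 against 24337 in shControl. It was called lower by edgeR and DESeq2 but not by limma (adjusted p = 0.061). The limma calls were 39.1% of the genes tested, beside 14.3% of all genes tested. The cytokine gene Lif rose to 336 and 382 normalised reads in shPHF2 replicates 1 and 2, against 158 in shControl (log2 fold change 1.17; limma, adjusted p = 0.040), a call lost with DESeq2 (adjusted p = 0.054) and with a correction for GC content and length (limma, adjusted p = 0.059). The BMP receptor gene Bmpr1b fell to 693 and 555, against 1756 (log2 fold change -1.50; limma, adjusted p = 0.0092). The neuregulin receptor gene Erbb4, which restrains gliogenesis in the mouse cortex, fell to 178 and 137, against 374 (log2 fold change -1.25; limma, adjusted p = 0.048), and was not called by DESeq2 (adjusted p = 0.072) or after the GC and length correction (limma, adjusted p = 0.074). The cytokine receptor genes Cntfr and Osmr, the Notch ligand gene Jag1 and Notch3 also rose, by 0.88 to 1.98 on the log2 scale, and the Notch ligand gene Dll1 fell by 0.98, all named after their values were seen. So was the receptor gene Il6ra, called by limma with 43.4 and 57.9 normalised reads in shPHF2 against 6.98 in shControl; it passed the minimum mean only through shPHF2, and 5 genes rose without it. Il6ra was not called by edgeR (adjusted p = 0.054) or DESeq2 (adjusted p = 0.097), and after the GC and length correction neither Il6ra nor Cntfr was (limma, adjusted p = 0.063 and 0.077). The shared receptor gene Il6st, gp130, was not called, with 5352 and 5673 in shPHF2 against 4223 in shControl.

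Of 34 genes for the signalling and transcription factors downstream, 32 were tested, and 3 rose and 2 fell (limma). These calls were 15.6% of the genes tested, near the 14.3% of all genes tested, and the list median log2 fold change was -0.08. The BMP target gene Id1 rose to 1003 and 1063 normalised reads in shPHF2 replicates 1 and 2, against 431 in shControl (log2 fold change 1.26; limma, adjusted p = 0.013). Stat3, the STAT that acts on the Gfap promoter, rose to 9756 and 10976, against 5367 (log2 fold change 0.95, limma, adjusted p = 0.018), and is named after its values were seen. Other genes of these pathways, also named after their values were seen, were not called by limma. Socs3 had 529 and 563 in shPHF2 against 599 in shControl (limma, adjusted p = 0.74). For Smad1, Hes1, Hes5 and Id3 the limma adjusted p was 0.58, 0.61, 0.33 and 0.059, and DESeq2 called Id3 higher. Smad5 had 10094 and 9516 in shPHF2 against 15194 in shControl (limma, adjusted p = 0.061), and DESeq2 called it lower. Over the list, DESeq2 called 4 genes higher and 3 lower. Pathway activity was not tested. The DNA methyltransferase gene Dnmt1 fell to 7465 and 5937, against 15492 (log2 fold change -1.22; limma, adjusted p = 0.012), and the Polycomb methyltransferase gene Ezh2, named after its values were seen, fell by 0.79 on the log2 scale. The Ezh2 call was lost with a pseudocount of 5 (limma, adjusted p = 0.051) and after the GC and length correction (limma, adjusted p = 0.083). The gliogenic transcription factor genes Nfia, Nfib and Sox9 were not called, with limma adjusted p of 0.82, 0.84 and 0.93. Nfia had 14629 and 11632 in shPHF2 against 12278 in shControl, and Sox9 had 4531 and 3901 in shPHF2 against 4289 in shControl.

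Lists of the other cells that the culture could hold were set beside the astrocyte markers. Of 15 radial glia genes tested, 1 rose, Sox2, to 10114 and 8819 normalised reads in shPHF2 against 5893 in shControl (log2 fold change 0.68; limma, adjusted p = 0.048), a call lost with edgeR, which called 0 genes of the list (adjusted p = 0.054), and after the GC and length correction (limma, adjusted p = 0.055). DESeq2 called 3 of the list higher, Sox2, Vim and Prom1, named after their values were seen. Over that list the limma calls were 6.67%, beside 14.3% of all genes tested, and the median log2 fold change was -0.16. Of 13 neuronal genes tested, Gad1, the GABA-synthesizing enzyme gene, rose to 720 and 500 in shPHF2 against 138 in shControl, and Elavl4 fell to 1216 and 1600 in shPHF2 against 2533 in shControl (limma, adjusted p = 0.0085 and 0.038). The Elavl4 call was lost after the GC and length correction (limma, adjusted p = 0.11). The limma calls were 15.4% of the neuronal genes tested, near the share of all genes. The neuronal median was -0.10 in replicate 1 and 0.99 in replicate 2. Of 4 ependymal genes tested, Foxj1 rose to 1708 and 1906 in shPHF2 against 960 in shControl (limma, adjusted p = 0.022). The other 3, named after their values were seen, were not called by limma. Their log2 fold changes were 0.10 for Ccdc153, -0.26 for Dynlrb2 and -0.51 for Rsph1. Both shPHF2 libraries lay above shControl for 1 of the 4 ependymal genes and below it for 2, and the ependymal median was -0.08. Among the 3 microglial, 5 endothelial and pericyte and 5 fibroblast genes tested, limma, edgeR and DESeq2 called 0; at an unadjusted p under 0.05 limma had 1 higher microglial, 1 higher endothelial and 1 lower fibroblast gene.

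**Figure D4:**
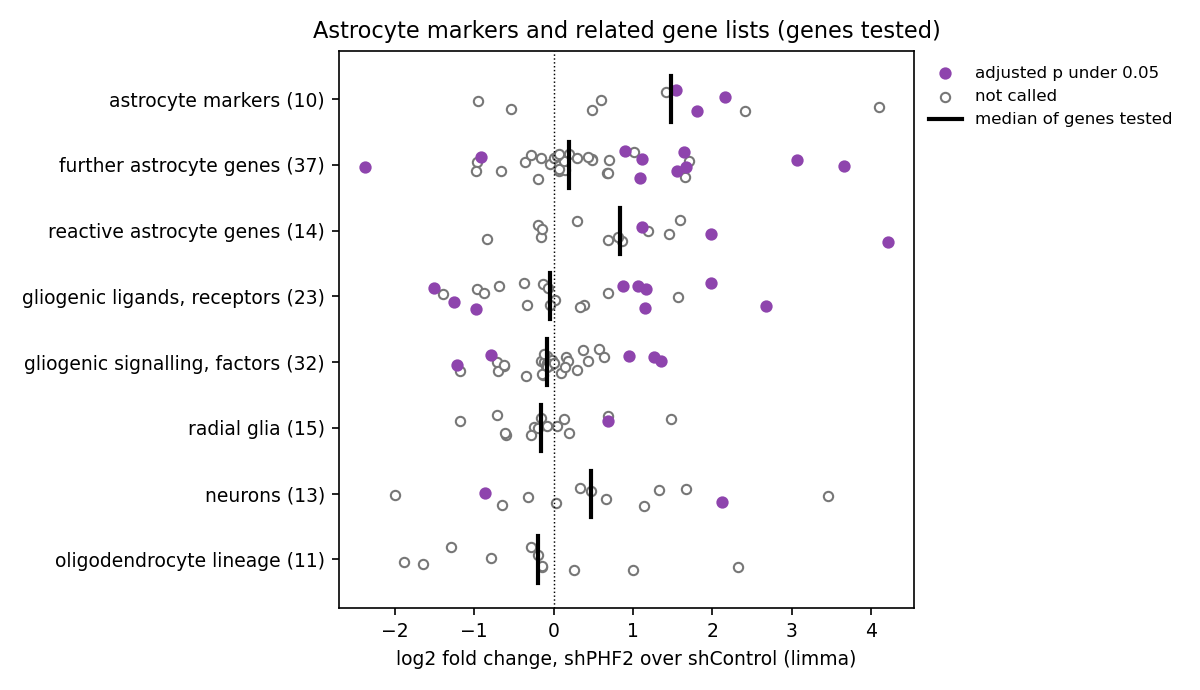
Log2 fold change (limma, shPHF2 over shControl) of each tested gene of the astrocyte markers and of 7 other lists, with the number tested in brackets. Filled points have an adjusted p under 0.05 and bars are medians; the median is 1.48 for the 10 markers and 0.19 for the 37 further astrocyte genes.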

How the data were processed

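The 3 libraries were made with a stranded kit after ribosomal RNA removal (500 ng of RNA each), per the labels' protocols. HISAT2, HTSeq, DESeq2 and the build mm10 are named in the submitters' processing notes; the sources used here give no versions, annotation or strand setting. The deposited values of each library are a signal, read counts divided by the DESeq2 size factor, and 100% were whole multiples of one step (within 0.001), so reads were recovered; median-of-ratios size factors from those reads, 1.19948 and 0.829427 for shPHF2 replicates 1 and 2 and 1.00323 for shControl, equal the reciprocal of that step in each library. The authors' deposited log2 fold change, Wald score, standard error and p-values are as the file headers name them; 4280 adjusted p-values are empty. Rows that name no gene (4), which held 61.4% to 61.5% of the reads in the table, were left out.

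The test was limma 3.58.1 on log2(value + 1) (mean-variance trend, R 4.3.3), two-sided, over 14148 genes. The fit has 1 residual degree of freedom, from the shPHF2 libraries, and 6.94 prior degrees of freedom; this takes the shControl library to be as variable as those. Fold changes on this scale understate low genes. Whether the replicates came from separate cultures is not stated beyond the word biological. Alternatives were edgeR 4.0.16, DESeq2 1.42.0, other pseudocounts, filters and scalings, and single replicates. Lengths are merged exons of GENCODE M21 (GRCm38).

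The markers and lists were chosen with earlier results of these data known. Beyond the markers, the text names the 3 genes per list with the largest change among those called with a mean of at least 100, and others as stated. One gene that this rule names is not reported here.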

Additional observations from a re-analysis of the deposited data

How the results depend on the processing

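The 3 calls among the markers, S100b, Clu and Sparcl1, held with pseudocounts of 0.5 and 5, a minimum mean of 50, edgeR, DESeq2 and a correction for GC content and exon length chosen after seeing the data. They were lost with no filter on low values, with quantile normalization and without the mean-variance trend, where limma called 0 markers higher and 0 of all genes in either direction, while 5, 3 and 5 markers and 3893, 3700 and 3300 genes had an unadjusted p under 0.05. The adjusted p of the 3 markers was 0.096 to 0.16 there; the cause was not tested. None of the 108 fold changes of markers under an alternative changed sign. For each marker both shPHF2 libraries lay on 1 side of shControl. Other pseudocounts, filters, the trend setting and single replicates therefore could not change the sign. The median of the markers was 1.01 with a minimum mean of 50, which leaves out Gfap and Aqp4, and 1.23 to 1.74 with a single shPHF2 replicate, which has no test. For the other lists, 11 of 132 counts under the 6 settings that made calls moved by over 1.5 times or to or from 0. Many of the 132 were 0 in the main setting, often in lists with few genes tested. Those had little room to move, so the share only describes. No paired analysis was possible because shControl has 1 library. With 1 control, its own error could not be estimated, and Gfap and Aqp4 rest on at most 31 reads a library; the Aqp4 replicates also stood apart beyond counting error.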
